A study of Mus musculus with 8 samples.

Results

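The genes described here make, package, take up and sense γ-aminobutyric acid (GABA), the main inhibitory transmitter of the cortex, or hold its receptors at the synapse. The 27 genes were taken by symbol from a list of GABA synthesis, transport, receptor and inhibitory synapse genes, out of 55536 genes in the count table, and all 27 were found. They were read in 8 frontal cortex libraries, 4 from wild-type (WT) mice and 4 from HAR123-KO mice, each from animals of 8 weeks. HAR123 is a neural enhancer within Smg6 that changed rapidly in the human lineage, and the KO mice lack its mouse counterpart after CRISPR-Cas9 editing of C57BL/6J embryos. The study sequenced this tissue to look for genes that respond to loss of the enhancer in a region involved in cognitive flexibility.

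Strains were backcrossed to C57BL/6J, and the WT animals were littermates per the study's figure legends. The deletion is constitutive, so it is not limited to the cortex or to 1 cell type, and the sex of the animals and the number of animals per library are not given in the sources used here. Replicate numbers name separate libraries, so the p-values measure the spread between libraries. The RNA was total RNA after removal of ribosomal RNA, from whole tissue that holds neurons, glia and vessels together. Fewer cells of a type and less RNA per cell cannot be told apart in such samples.

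GABA is made from glutamate by glutamate decarboxylases, loaded into vesicles, released, and cleared by transporters on neurons and astrocytes before mitochondrial enzymes break it down. It acts on GABA-A receptors, which are chloride channels built from a family of subunits, and on GABA-B receptors, which signal through G proteins. Whether an open GABA-A channel inhibits a neuron depends on the chloride gradient, which the cotransporters KCC2 and NKCC1 set in opposite directions.

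Of the 27 genes, Slc12a2, the gene of the chloride importer NKCC1, was higher in HAR123-KO cortex, and Slc6a11, the gene of the GABA transporter GAT-3, and Gabbr2, which encodes a subunit of the GABA-B receptor, were lower. These 3 had an adjusted p under 0.05 in the DESeq2 Wald test, with p-values adjusted over 12758 genes, and all 27 genes received an adjusted p. The 3 genes are 11.1% of the list, and 1.69% of all genes tested met the same call. The list was chosen with earlier results of these data known. In the higher direction 1 of the 27 was called, where the share over all genes was 0.972%, and in the lower direction 2 were called, where it was 0.713%. Leaving out 1 library left 1 of the 3 calls without WT replicate 2, 3 or 4 or HAR123-KO replicate 2 or 3, and 2 of them without any one of the others. Among protein-coding genes whose mean normalized count reached 100, which takes in every listed gene but Gabrg1 and Kctd8, 2.68% were called. The study's limits for this tissue add an absolute log2 fold change over 0.5 to the adjusted p under 0.05. They were met by 0.298% of all genes and by 0 of the 27 with DESeq2.

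The remaining 24 genes had estimates on either side of 0. Over all 27, 16 estimates were above 0 and 11 below, and the median log2 fold change was 0.01, beside -0.00 over all genes tested. An unadjusted p under 0.05 was found for 7 of the 27 and for 8.78% of all genes tested. The 4 WT and the 4 HAR123-KO normalized counts did not overlap in 6 genes, Gad2, Slc6a11, Gabrg3, Gabrd, Gabbr2 and Slc12a2, and the same was true of 7.67% of all genes. The summed counts of the list held 0.505% to 0.519% of the nuclear protein-coding counts in each library.

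**Figure D1:**
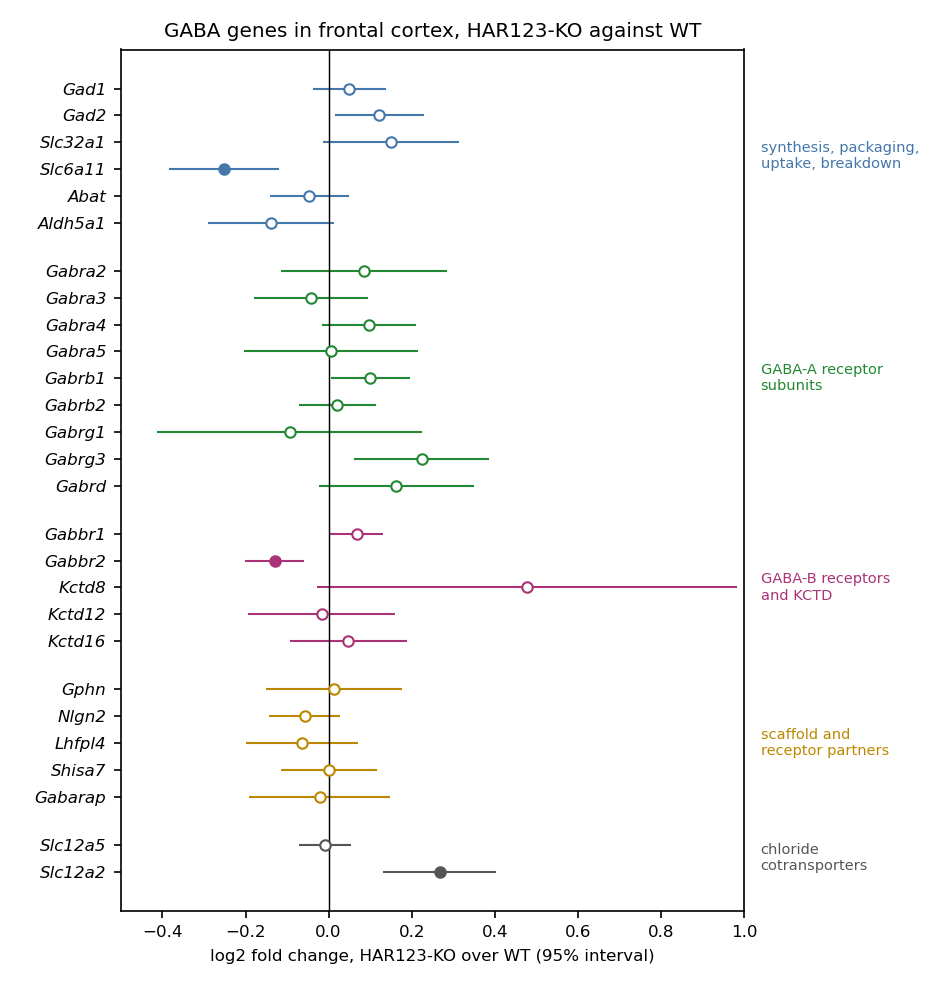
Log2 fold change of each of the 27 genes, HAR123-KO over WT, grouped by role, with the point for the DESeq2 estimate and the bar for its 95% interval. Filled points mark the 3 genes with an adjusted p under 0.05, Slc6a11 and Gabbr2 to the left of 0 and Slc12a2 to the right. The widest bar belongs to Kctd8, the gene with the fewest counts.

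The precision behind these values came from few effective reads. Total counts ran from 13528251 to 17051001 per library, but the single noncoding gene Gm42418, which overlaps ribosomal RNA, took 55.1% to 58.0% of them, and nuclear protein-coding genes were left with 2786320 to 3732172. The median coefficient of variation of the listed genes between WT libraries was 5.17%, and counting alone gives 5.05%. Standard errors ran from 0.03 on the log2 scale for Slc12a5 to 0.26 for Kctd8. Among the 24 genes without a call, the 95% interval stayed within 0.25 log2 units of 0 for 17, and the farthest bound was 0.98 for Kctd8 and 0.41 for the rest. Pairs of libraries differed by more than sampling noise, with a chi-square per degree of freedom of 1.21 to 1.3 within a genotype and 1.58 to 1.72 across genotypes, so each was kept as a separate sample.

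Markers of several cell types moved with genotype across all 8 libraries, and the normalized counts below are read beside them. Summed markers of striatal projection neurons, which release GABA and lie below the cortex, ran from 7504 to 7673 in WT and from 9531 to 9637 in HAR123-KO, with 10 of 12 markers called higher. Summed markers of cortical interneurons, the GABA-releasing cells of the cortex, ran from 2448 to 2591 in WT and from 2451 to 2597 in HAR123-KO, with 0 of 11 tested markers called by DESeq2, edgeR or limma-voom and 1 at an unadjusted DESeq2 p under 0.05. Cortical excitatory neuron markers ran from 19750 to 20160 in WT and from 18370 to 18780 in HAR123-KO, and 3 of 8 were called lower. The interneuron ranges overlapped, while those of the striatal and excitatory lists did not.

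Glial lists were also separated by genotype. Astrocyte markers summed to between 23630 and 24320 in WT and between 21970 and 22590 in HAR123-KO, and 3 of 10 were called lower. Oligodendrocyte markers ran from 9262 to 9468 in WT and from 10260 to 10470 in HAR123-KO, and 3 of 7 were called higher. Endothelial markers ran from 387.1 to 422.0 and from 301.0 to 336.1 respectively, with 1 of 6 called lower. Choroid plexus markers ran from 25.89 to 38.51 and from 102.1 to 120.6, with the 1 marker that received an adjusted p called higher and all 8 estimates above 0. No marker of any list was at 0 in every library, and the cortical excitatory genes Slc17a7 and Camk2a were abundant, at WT means of 3647 and 11110 normalized counts.

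**Figure D2:**
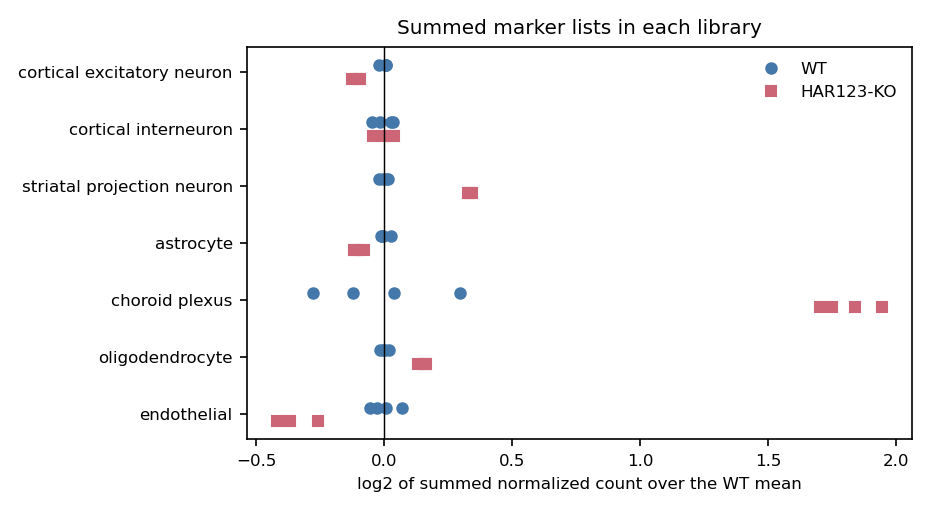
Summed normalized counts of 7 cell type marker lists in each library, as log2 of the sum over the WT mean, with 4 circles for WT and 4 squares for HAR123-KO. Striatal, choroid plexus and oligodendrocyte sums lie higher in HAR123-KO, excitatory, astrocyte and endothelial sums lie lower, and the interneuron sums of the genotypes overlap.

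Per kilobase of exon, the GABA-B receptor subunit Gabbr1 had the highest WT level of the list, at 95.1 counts per kilobase after scaling to the nuclear protein-coding counts of the library (in units of 1000000). It was followed on the same scale by Slc12a5, the gene of the neuronal chloride extruder KCC2, at 89.0, Gabbr2 at 72.9 and Nlgn2 at 57.2. A middle group lay close together, with Gabarap at 40.0, Gabrb2 at 38.3, Abat at 37.3 and Gad1 at 36.3. The lowest levels were 2.72 for Gabrg1 and 2.20 for Kctd8. Apart from these 2 genes, every listed gene had a WT mean over 100 normalized counts, and 11 had a mean over 500.

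**Figure D3:**
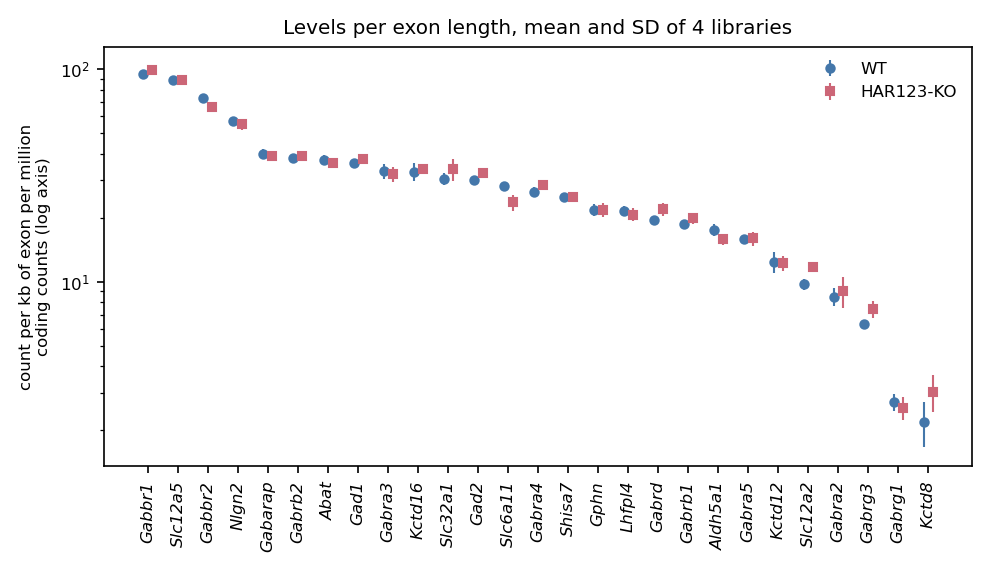
Level of each gene, as counts per kilobase of exon scaled to 1000000 nuclear protein-coding counts, on a log axis, as the mean and SD of 4 libraries, WT as circles and HAR123-KO as squares, ordered by the WT mean. The order runs from Gabbr1 at 95.1 to Kctd8 at 2.20 in WT, a far wider span than any difference between genotypes.

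Sequence before the transcription start of the genes that fell can be taken from RefSeq. Its promoter table on GRCm38.p6 holds 28 windows for 23 of the 27 genes. No entry was found for Abat, Gabrd, Slc12a2 and Kctd16. The sequences below, written 5′ to 3′, are the parts of these windows that lie before both the RefSeq start and the GENCODE gene boundary. For Slc6a11 these are the 250 bases before the RefSeq start, at chr6:114130991-114131240 on the plus strand. For Gabbr2, whose GENCODE gene reaches farther upstream than the RefSeq start, these are the 91 bases of the window farthest from that start, at chr4:46991874-46991964 on the minus strand. They are shown because these are the called genes with an entry, and capitals mark the letters GGGCGG on either strand, the core of a GC box.
Slc6a11: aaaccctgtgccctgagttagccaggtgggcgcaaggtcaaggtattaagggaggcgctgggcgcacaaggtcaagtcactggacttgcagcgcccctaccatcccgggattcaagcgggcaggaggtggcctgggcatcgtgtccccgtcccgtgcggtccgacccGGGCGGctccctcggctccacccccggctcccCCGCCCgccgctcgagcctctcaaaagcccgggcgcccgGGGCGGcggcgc
Gabbr2: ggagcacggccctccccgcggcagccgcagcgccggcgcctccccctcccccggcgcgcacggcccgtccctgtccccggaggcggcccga

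The printed stretches differ in length and position, so their matches are not compared, and the full window of each gene holds GGGCGG. In these full windows, from 250 bases before to 50 after the RefSeq start, the GC content was 72.3% for Slc6a11 and 80.3% for Gabbr2, against a median of 52.7% over 32851 windows of the same length. The Slc6a11 window holds 32 CpG dinucleotides and the Gabbr2 window 46, against a median of 7. High CpG counts were common in the list, with 24 of its 28 windows above that median. GGGCGG was found on either strand in 15 of the 28 windows and in 35.7% of all windows, CCAAT in 11 and 37.4%, and TATAAA in 4 and 13.6%. These matches describe letters in a window and were not tested against expression.

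Among the 6 genes of GABA synthesis, packaging, uptake and breakdown, 1 was called, and it fell. The median log2 fold change of the 6 was 0.00, with 3 estimates above 0 and 3 below. Slc6a11 (ENSMUSG00000030307, chromosome 6, 114131241 to 114249952 on GRCm38, plus strand) encodes GAT-3, a plasma membrane transporter that takes up GABA mainly into astrocytes. Its normalized counts were 418, 447, 459 and 463 in WT replicates 1 to 4 and 399, 355, 406 and 341 in HAR123-KO replicates 1 to 4. The highest HAR123-KO library lay just under the lowest WT library, so the groups did not overlap. The WT mean of 446.7 ± 20.6 fell to 375.3 ± 32.1 in HAR123-KO (SD, n = 4 each), which is -0.25 ± 0.07 (SE) in log2 fold change, at an adjusted p of 0.0159 by DESeq2. The 95% interval of the change ran from -23.3% to -7.90%. edgeR gave an adjusted p of 0.00396 and limma-voom 0.0158.

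The call on Slc6a11 held in 3 of the 8 fits that left out 1 library. It was lost when WT replicate 2, 3 or 4 or HAR123-KO replicate 2 or 4 was left out, with DESeq2 adjusted p-values of 0.0988, 0.0892, 0.0908, 0.193 and 0.113, and the log2 fold change stayed between -0.29 and -0.21. Scaling by library totals, which shifts the median of all genes by 0.04, gave -0.21 and an adjusted p of 0.147. The fall went together with lower astrocyte markers, of which Slc1a2, Slc1a3 and Gja1 were called, at log2 fold changes of -0.10, -0.18 and -0.24. The list was mixed, since Gfap and S100b had 0.16 and 0.00 and Aldoc and Aldh1l1 -0.01 and -0.02, all without a call, and most of its summed count came from Slc1a2, with a WT mean of 18760. The part of astrocyte markers in the result was not tested.

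Gad1 and Gad2 encode the glutamate decarboxylases GAD67 and GAD65, the enzymes that make GABA. Gad1 (ENSMUSG00000070880, chromosome 2) had 866, 881, 885 and 860 normalized counts in WT and 937, 901, 897 and 883 in HAR123-KO, in replicate order. The genotypes overlapped. DESeq2 gave a log2 fold change of 0.05 ± 0.04 (SE) at an adjusted p of 0.875, with an interval from -2.55% to 9.97%. Gad2 (ENSMUSG00000026787, chromosome 2) had 538, 538, 576 and 563 in WT and 593, 591, 630 and 599 in HAR123-KO. All 4 HAR123-KO libraries lay above all 4 WT libraries, but the log2 fold change of 0.12 ± 0.05 (SE) did not pass the adjustment over all genes (DESeq2 adjusted p 0.432, unadjusted 0.0256).

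Slc32a1 (ENSMUSG00000037771, chromosome 2) encodes VGAT, the transporter that loads GABA into synaptic vesicles. Its normalized counts were 265, 288, 250 and 271 in WT and 252, 307, 291 and 339 in HAR123-KO. The HAR123-KO libraries were spread wider than the WT libraries and overlapped them, at a log2 fold change of 0.15 ± 0.08 (SE) and a DESeq2 adjusted p of 0.630. The estimate was 0.08 without HAR123-KO replicate 4 and 0.22 without HAR123-KO replicate 1. Gad1, Gad2 and Slc32a1 are shared by interneurons and striatal projection neurons, whose marker lists are given above, and the part of either in these values was not tested. Abat and Aldh5a1 encode GABA transaminase and succinate semialdehyde dehydrogenase, the consecutive enzymes of GABA breakdown. DESeq2 estimated log2 differences of -0.05 ± 0.05 and -0.14 ± 0.08 (SE) for them, at adjusted p-values of 0.911 and 0.628.

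**Figure D4:**
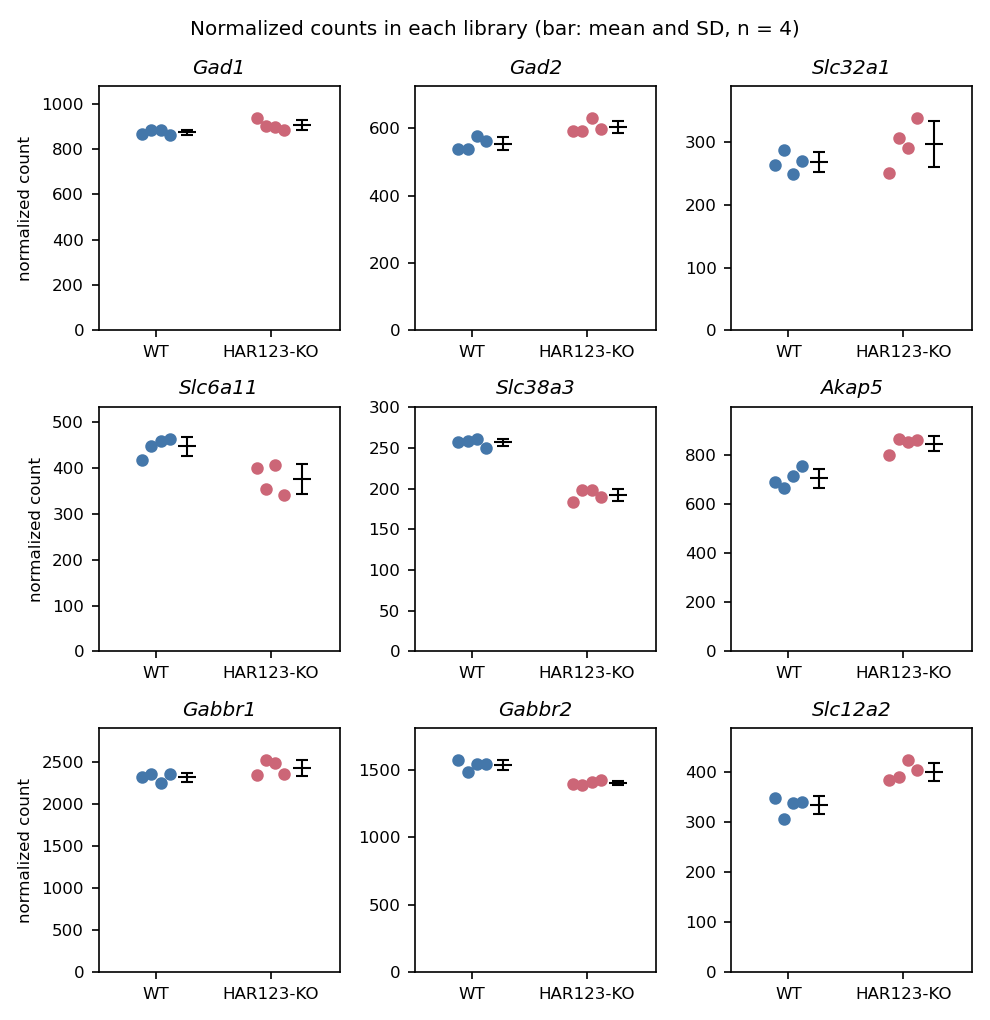
Normalized counts of 9 genes in each library, 4 WT and 4 HAR123-KO points a panel, with the mean and SD beside them and axes that start at 0. The genotypes are separated for Gad2, Slc6a11, Slc38a3, Akap5, Gabbr2 and Slc12a2, and overlap for Gad1, Slc32a1 and Gabbr1.

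Of the 9 listed GABA-A receptor subunit genes, 0 were called by DESeq2, edgeR or limma-voom, and 2 had an unadjusted DESeq2 p under 0.05, where the share over all genes was 8.78%. Their median log2 fold change was 0.09, with 7 estimates above 0. GABA-A receptors are pentamers, mostly of α, β and γ or δ subunits, and the subunit sets where in the cell they sit and how they respond to drugs. The largest difference among the 9 was that of Gabrg3 (ENSMUSG00000055026, chromosome 7), which encodes the γ3 subunit. Its normalized counts were 247, 241, 229 and 239 in WT and 272, 291, 248 and 304 in HAR123-KO. The lowest HAR123-KO library, replicate 3, lay just above the highest WT library, and the log2 fold change was 0.22 ± 0.08 (SE), unadjusted p 0.00715 and adjusted p 0.222 by DESeq2.

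Gabrd (ENSMUSG00000029054, chromosome 4) encodes the δ subunit of extrasynaptic receptors, which carry the tonic GABA current. It had 175, 169, 188 and 174 normalized counts in WT and 188, 217, 190 and 197 in HAR123-KO, which met at WT replicate 3 and HAR123-KO replicate 1 without crossing. The log2 fold change was 0.16 ± 0.10 (SE) with a DESeq2 adjusted p of 0.669. The α subunit genes Gabra2, Gabra3, Gabra4 and Gabra5 had log2 fold changes of 0.09, -0.04, 0.10 and 0.01, and the β subunit genes Gabrb1 and Gabrb2 had 0.10 and 0.02. Leaving out 1 library, the Gabra2 estimate ran from 0.01 to 0.19. Gabrb1 was the other subunit gene with an unadjusted p under 0.05, at 0.0396, and its adjusted p was 0.516 by DESeq2. Gabrg1, the γ1 subunit gene, had fewer counts than the other subunit genes, with a WT mean of 67.3 ± 6.07 (SD, n = 4) normalized counts and a log2 fold change of -0.09 ± 0.16 (SE).

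Several subunit genes lie in clusters. Gabrg1, Gabra2, Gabra4 and Gabrb1 lie together on chromosome 5 between 70.75 and 72.15 Mb, and their log2 fold changes ran from -0.09 to 0.10. Gabrg3 and Gabra5 lie together on chromosome 7 between 56.72 and 57.51 Mb, at 0.22 and 0.01. The exons of Gabra4 and Gabrb1 share 46 bases on opposite strands. None of these 6 genes was called. Striatal projection neuron markers, which were higher in HAR123-KO as given above, moved in the direction of Gabrg3 and Gabrd, and their part in these values was not tested.

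GABA-B receptors are obligate pairs of a ligand-binding subunit, from Gabbr1, and a subunit that carries the protein to the surface and couples it to G proteins, from Gabbr2. Gabbr2 (ENSMUSG00000039809, chromosome 4, 46662305 to 46991873 on GRCm38, minus strand) had 1573, 1487, 1539 and 1542 normalized counts in WT and 1393, 1387, 1407 and 1422 in HAR123-KO. All HAR123-KO libraries lay under the lowest WT library, replicate 2. The mean fell from 1535 ± 35.7 to 1402 ± 15.4 (SD, n = 4 each), or -0.13 ± 0.04 (SE) in log2 fold change, with adjusted p-values of 0.0217 by DESeq2, 0.0214 by edgeR and 0.00809 by limma-voom. This is the smallest change of the 3 called genes, with an interval from -0.20 to -0.06 on the log2 scale.

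Gabbr1 (ENSMUSG00000024462, chromosome 17) had 2323, 2356, 2250 and 2365 normalized counts in WT and 2345, 2529, 2493 and 2358 in HAR123-KO. HAR123-KO replicates 2 and 3 lay above the WT libraries and the other two within their range. The log2 fold change was 0.07 ± 0.03 (SE), unadjusted p 0.0374 and adjusted p 0.503 by DESeq2. The ratio of Gabbr2 to Gabbr1 counts within each library, which needs no scaling between libraries, was 0.677, 0.631, 0.684 and 0.652 in WT and 0.594, 0.549, 0.564 and 0.603 in HAR123-KO. Every HAR123-KO ratio lay under every WT ratio, and the mean log2 ratio fell from -0.60 ± 0.05 to -0.79 ± 0.06 (SD, n = 4 each; exact permutation test, two-sided, p = 0.0286, adjusted over 3 ratios 0.0429). This p is the smallest that 4 against 4 libraries can give.

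The Gabbr2 call held without WT replicate 2 and without HAR123-KO replicate 4, and was lost when any one of the other 6 libraries, WT replicates 1, 3 and 4 or HAR123-KO replicates 1, 2 and 3, was left out. The log2 fold change then stayed between -0.14 and -0.12. Scaling by library totals gave -0.09 and took the DESeq2 adjusted p to 0.404. Gabbr2 fell together with markers of cortical excitatory neurons, of which Slc17a7, Camk2a and Nrgn were called, at log2 fold changes of -0.16, -0.08 and -0.14, and their part in the result was not tested.

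KCTD proteins are auxiliary subunits that bind the GABA-B receptor and set the speed of its response. Kctd12 and Kctd16 had log2 fold changes of -0.02 ± 0.09 and 0.05 ± 0.07 (SE), with DESeq2 adjusted p-values of 0.995 and 0.958. Kctd8 had the largest estimate of the list, 0.48 ± 0.26 (SE), but from means of 23.3 ± 5.54 and 32.3 ± 6.49 (SD, n = 4 each) normalized counts that overlapped, with a DESeq2 adjusted p of 0.612. Its interval on the log2 scale ran from -0.03 to 0.98. The exons of Kctd12 overlap those of Gm26778 on the other strand over 62.8% of their length, and Gm26778 had a mean of 1.05 normalized counts.

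The 5 genes of the inhibitory postsynaptic scaffold and of receptor partners had estimates between -0.06 and 0.01, with a median of -0.02 on the log2 scale. DESeq2, edgeR and limma-voom called 0 of them, and 0 had an unadjusted DESeq2 p under 0.05. Gphn (ENSMUSG00000047454, chromosome 12) encodes gephyrin, the protein lattice that holds GABA-A and glycine receptors at synapses. It had 268, 232, 264 and 260 normalized counts in WT and 249, 277, 269 and 235 in HAR123-KO. The libraries of the genotypes were interleaved, at a log2 fold change of 0.01 ± 0.08 (SE) and an interval from -0.15 to 0.18 on that scale. Nlgn2, the adhesion molecule of inhibitory synapses, had -0.06 ± 0.04, and Lhfpl4, a membrane partner needed to place GABA-A receptors at synapses, had -0.06 ± 0.07. Shisa7, another GABA-A receptor partner, had 0.00 ± 0.06, and Gabarap, a receptor-associated protein of the autophagy family, had -0.02 ± 0.09.

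Nlgn2 and Gabarap lie on chromosome 11 with Smg6, the host gene of the deleted enhancer, 5.09 and 4.93 Mb from it, and Gabrb2 lies 32.3 Mb from it. None of these 3 genes was called.

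The chloride cotransporters differed from each other. Slc12a2 (ENSMUSG00000024597, chromosome 18, 57878678 to 57946821 on GRCm38, plus strand) had 349, 308, 339 and 340 normalized counts in WT and 385, 391, 425 and 405 in HAR123-KO. Every HAR123-KO library lay above the highest WT library, replicate 1. The mean rose from 334.0 ± 18.0 to 401.5 ± 17.9 (SD, n = 4 each), or 0.27 ± 0.07 (SE) in log2 fold change, with adjusted p-values of 0.00979 by DESeq2, 0.00195 by edgeR and 0.00746 by limma-voom. The interval ran from 9.59% to 32.2% higher. The call was lost without WT replicate 2, the lowest WT library, at a DESeq2 adjusted p of 0.183, and without HAR123-KO replicate 3, the highest, at 0.145.

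Slc12a5 (ENSMUSG00000017740, chromosome 2), which encodes KCC2, had 2006, 2090, 2131 and 2117 normalized counts in WT and 2049, 2097, 2047 and 2112 in HAR123-KO. All HAR123-KO libraries lay within the WT range, and DESeq2 gave -0.01 ± 0.03 (SE) in log2 fold change at an adjusted p of 0.992, the narrowest interval of the list at -4.83% to 3.84%. The ratio of Slc12a5 to Slc12a2 counts was 5.73, 6.77, 6.27 and 6.21 in WT and 5.31, 5.35, 4.81 and 5.20 in HAR123-KO. The groups did not overlap, and the mean ratio fell from 6.25 ± 0.42 to 5.17 ± 0.25 (SD, n = 4 each), which on the log2 scale is -0.27 (exact permutation test, two-sided, p = 0.0286, adjusted over 3 ratios 0.0429). Without HAR123-KO replicate 3 or 4 the exact permutation p was 0.0571.

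NKCC1 is carried by glia, choroid plexus and vessels as well as by neurons, and whole-tissue counts do not separate them. Oligodendrocyte and choroid plexus marker sums were higher in HAR123-KO, with Cnp and Cldn11 among those called, at log2 fold changes of 0.15 and 0.28, and Kl called at 1.99. The oligodendrocyte list was mixed, since Mobp, Mal, Mag and Mog had -0.03, 0.00, 0.05 and 0.09 without a call. Astrocyte and endothelial marker sums were lower in HAR123-KO, as given above. Of the neuronal lists, striatal projection neuron sums were higher in HAR123-KO, excitatory sums were lower and interneuron sums overlapped. The part of these lists in the rise of Slc12a2 was not tested.

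The third ratio, Gad2 to Gad1, was 0.622, 0.611, 0.651 and 0.655 in WT and 0.633, 0.656, 0.703 and 0.679 in HAR123-KO. The groups overlapped, and the mean log2 ratio differed by 0.07 (exact permutation test, two-sided, p = 0.114, adjusted over 3 ratios 0.114).

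**Figure D5:**
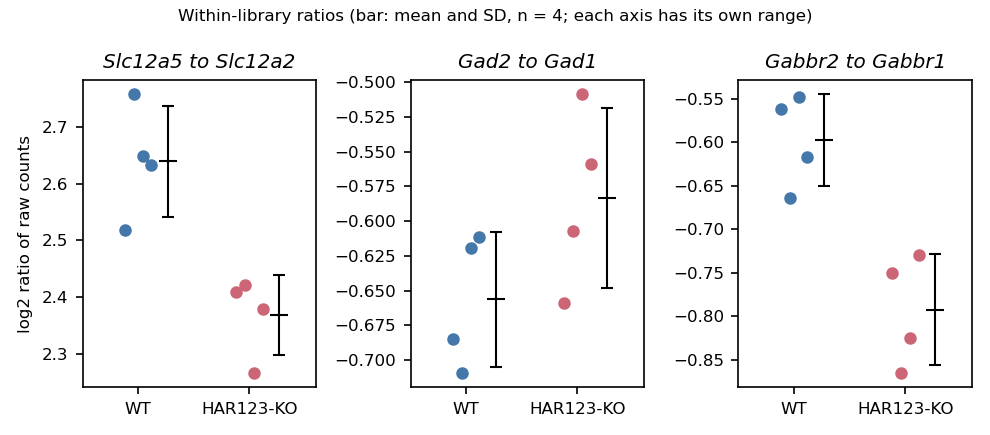
Log2 ratio of raw counts within each library for Slc12a5 to Slc12a2, Gad2 to Gad1 and Gabbr2 to Gabbr1, 4 WT and 4 HAR123-KO points a panel with mean and SD, each panel on its own axis that does not start at 0. WT and HAR123-KO points are separated in the first and the last panel and overlap for Gad2 to Gad1.

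Other genes of GABA handling and the inhibitory synapse were read from a further list of 34, of which 28 received an adjusted p. It holds the remaining GABA-A receptor subunits, GABA and glutamine transporters, glutamine enzymes, scaffold and trafficking proteins, and regulators of chloride transport. DESeq2 called 3 of the 28, 1 higher and 2 lower, or 10.7%, and the median estimate was -0.02 on the log2 scale. Over all genes 1.69% were called, and 2.68% of protein-coding genes with a mean normalized count of at least 100. This list too was chosen with earlier results of these data known, so its share is open to that choice. The counts of the genotypes did not overlap in 5 of the 28, where the share over all genes was 7.67%.

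Slc38a3 (ENSMUSG00000010064, chromosome 9) encodes SNAT3, the transporter by which astrocytes release glutamine, the precursor that neurons turn into glutamate and GABA. It had 257, 258, 261 and 250 normalized counts in WT and 183, 198, 198 and 189 in HAR123-KO. The genotypes did not overlap, but the WT coefficient of variation of 1.77% was under the 6.26% that counting alone gives. The spread between these libraries is thus too small to judge the separation by. The log2 difference was -0.42 ± 0.09 (SE), at an adjusted p of 0.000245 by DESeq2. This was the largest fall among the called genes of either list. Akap5 (ENSMUSG00000021057, chromosome 12) encodes an anchoring protein that brings kinases and a phosphatase to postsynaptic receptors. It rose from 689, 664, 713 and 754 normalized counts in WT to 800, 865, 854 and 860 in HAR123-KO, a log2 fold change of 0.26 ± 0.05 (SE) with a DESeq2 adjusted p of 2.95e-05. Slc38a3 and Akap5 kept their calls in each fit that left out 1 library. Slc38a3 fell beside the astrocyte markers and Akap5 rose beside the striatal projection neuron markers given above, and the part of either in these results was not tested.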

How the data were processed

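Total RNA from frontal cortex was depleted of ribosomal RNA and sequenced as paired-end directional libraries. The authors aligned reads with STAR 2.5.2b to GRCm38 and summed exon reads per gene with featureCounts, and the deposited table holds these raw counts. The strand and multiple-match settings at counting are not given in the sources used here, so genes that overlap others are uncertain. All 55536 identifiers matched GENCODE M21 with the same start and end, which gave symbols and coordinates (1-based). Genotype and replicate number came from the sample titles.

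Genotypes were compared in R 4.3.3 by the Wald test of DESeq2 1.42.0, scaled by median-of-ratios size factors, with no term but genotype. Benjamini-Hochberg adjustment covered the genes kept by the independent filter (alpha 0.1, mean count above 17.55). A gene was called with an adjusted p under 0.05. Normalized counts are raw counts divided by the size factors, and intervals are 95% Wald intervals. edgeR 4.0.16 (quasi-likelihood), limma-voom (limma 3.58.1), other size factors, no independent filter, a filter at 10 counts in 4 libraries, the study's limits, an adjusted p under 0.01, the replicate number as a block, a ratio pseudocount of 0.5 in place of 1, and leaving out each library in turn were alternatives. edgeR with the block was added after seeing the data. Ratios were tested by exact permutation over the 70 assignments of libraries. Scripts were tested on simulated data.

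The 27 genes, the further list of 34 and the marker lists were chosen with earlier results of these data known. All 27 genes are named. Values per library are given for called genes and for Gad1, Gad2, Slc32a1, Gabbr1, Gphn and Slc12a5 whatever their p, and genes of the further list are named where called, except 1 called gene whose result is not reported here. Gabrg3 and Gabrd were given in full after their values were seen, because their genotypes did not overlap. Deposited columns of per-sample values were all used. Counts carry no molecular tags, so counting error understates the error of a library.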

Additional observations from a re-analysis of the deposited data

How the results depend on the processing

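The count of 3 called genes among the 27 stayed at 3 with edgeR, limma-voom, TMM size factors, size factors from nuclear coding genes, the count minimum, no independent filter and edgeR with a replicate block. It was 1 with library totals as size factors, 0 under the study's limits and 1 at an adjusted p under 0.01, where Slc12a2 remained. Leaving out 1 library gave 1 to 2, the lower count without WT replicate 2, 3 or 4 or HAR123-KO replicate 2 or 3. With DESeq2 and a replicate block it was 0, where 22 genes were called in all against 326 for edgeR with the block. The 3 calls of the further list became 0 under the study's limits and 0 under the DESeq2 block, and stayed at 3 without any one library. Over all genes, DESeq2 called 215, edgeR 331 and limma-voom 290. The replicate numbers do not pair the libraries, since correlations of deviations ran from -0.0375 to 0.0235. In the paired form of the ratios, whose smallest exact p is 0.125, Slc12a5 to Slc12a2 was -0.27 and Gabbr2 to Gabbr1 -0.20, both at p = 0.125 by an exact permutation of signs. Leaving out 1 library, these ran from -0.31 to -0.23 and from -0.22 to -0.17. Signs turned for genes without a call. Library totals gave 0.0304 for Slc12a5, 0.0219 for Kctd12 and 0.0170 for Gabarap, and limma-voom -0.0007 for Shisa7. Leaving out 1 library, log2 fold changes ran from -0.0835 to 0.0166 for Gabra3, -0.028 to 0.0539 for Gabra5, -0.0312 to 0.0519 for Gphn, -0.0285 to 0.0366 for Shisa7, -0.0257 to 0.003 for Slc12a5, -0.0663 to 0.0411 for Kctd12, -0.0049 to 0.0963 for Kctd16 and -0.0607 to 0.0043 for Gabarap. Of the 24 genes without a call, 17 had intervals within 0.25 log2 units of 0. Depth was not varied. The cause of these shifts was not tested.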
